A study of Mus musculus with 17 samples.

Results

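Genes of nucleolar ribosome assembly were described in mouse mammary tumours induced by mutant Myc. The set was a list of 41 genes named for their roles in making ribosomes in the nucleolus, and 39 of the 41 were measured, out of 12393 genes on the array. Dkc1, the pseudouridine synthase of box H/ACA particles, had no probe set in the supplied probe table. The probe set of Mrto4, a large-subunit assembly factor, is shared with its pseudogene copies, so it was not used. Where a gene had several probe sets the brightest on average was used, and each was set against the histology of the tumour and against the tumour's own Myc value.

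The tumours fell into 6 labelled EMT (epithelial to mesenchymal transition), 9 labelled Squamous, 1 Papillary and 1 Microacinar. All came from FVB mice and all carried Myc T58A, a Myc mutant in which a phosphorylated threonine is replaced, in a series described as low expressing. The transgene was under MMTV control, which drives expression mainly in epithelial cells of the mammary gland. No normal mammary gland and no tumour of wild-type Myc was among the samples, so each comparison is between tumours, and ages were not given. Each tumour gave 1 array, replicate numbers only name the tumours of one label, and nothing in the labels says that the tumours came from separate animals. The p-values therefore measure the spread between these tumours, which may be partly technical.

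All values are log2 signals per gene as deposited, and the number of arrays limits their precision. Of the arrays, 14 have numbered titles, and EMT 5, EMT 6 and Squamous 9 have titles with the letters TM and more widely spread values (per-array SDs of 2.46 to 2.51, against 2.25 to 2.29). The title format was therefore a term of each model across genes. Squamous 7 and Squamous 8 share a number in their titles, as do Squamous 5 and the Microacinar tumour. The 3′ minus 5′ signal of Gapdh and of beta-actin, averaged over both controls and higher in less intact RNA, averaged 0.35 ± 0.13 in EMT and 0.48 ± 0.08 in Squamous tumours (SD, n = 6 and 9; exact permutation test, two-sided, p = 0.0308). On numbered arrays alone the difference was -0.10 (exact permutation p = 0.162). Epithelial markers (12 of 12 measured) averaged 6.20 to 11.45 over the EMT tumours and 10.36 to 11.45 over the Squamous tumours, and EMT 4, EMT 5 and EMT 6 were the low ones. Cdh1, the epithelial cadherin, spanned 7.04 to 12.09 in EMT and 11.13 to 11.97 in Squamous tumours. Fibroblast markers (11 of 12 measured) averaged 10.52 to 12.92 over the EMT tumours and 8.79 to 12.34 over the Squamous tumours. Skeletal muscle markers (12 of 12 measured) averaged 4.99 to 10.93 over the EMT tumours, highest in EMT 4, and 5.05 to 9.23 over the Squamous tumours. The part of tissue makeup and RNA quality in the results below was not tested, and in bulk tissue fewer cells of a type and less RNA per cell cannot be told apart.

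The nucleolus is where RNA polymerase I transcribes the ribosomal RNA genes and where the transcript is modified, cut and packed with ribosomal proteins. Box C/D particles methylate the RNA and box H/ACA particles convert uridines to pseudouridine, each guided by a small nucleolar RNA. Large assemblies then fold and cleave the precursors of the small and the large subunit before export. Myc is known as a broad activator of these genes, in part through the E-box CACGTG, to which it binds with its partner Max, and nucleolar size has long been read by pathologists as a mark of growing tumour cells.

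Promoter windows show where that motif lies in the genes whose values are described below. RefSeq (assembly GRCm38.p6) gave a window, from 250 bases before to 50 bases after a transcription start, for 34 of the 39 genes. Fbl, Npm1, Rrp12, Bop1 and Rrs1 had no window and were not searched. The motif CACGTG reads the same on both strands, and 6 of the 34 genes held it (17.6%), against 10.8% of the 9887 measured genes with a window. These 6 were Wdr43, Utp18, Imp4, Tsr1, Pes1 and Nop2. Pes1, Utp18 and Nop2 are shown because their motifs lie at different distances from the start, and Rcl1 because its level moved most with Myc although its window has no such letters. Capitals mark the motif. The Pes1 window is chr11:3963725-3964024 on the plus strand, with the motif beginning 2 bases downstream of the start site. The Utp18 window is chr11:93885717-93886016 on the minus strand, with the motif 20 bases upstream of the start. The Nop2 window is chr6:125131633-125131932 on the plus strand, with the motif 60 bases upstream. The Rcl1 window is chr19:29101125-29101424 on the plus strand.
Pes1: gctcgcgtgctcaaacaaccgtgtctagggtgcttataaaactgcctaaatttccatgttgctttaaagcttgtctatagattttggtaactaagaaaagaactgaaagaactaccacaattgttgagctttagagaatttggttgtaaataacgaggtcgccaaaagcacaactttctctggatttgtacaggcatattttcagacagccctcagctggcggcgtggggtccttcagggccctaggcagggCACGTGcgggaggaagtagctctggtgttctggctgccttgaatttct
Utp18: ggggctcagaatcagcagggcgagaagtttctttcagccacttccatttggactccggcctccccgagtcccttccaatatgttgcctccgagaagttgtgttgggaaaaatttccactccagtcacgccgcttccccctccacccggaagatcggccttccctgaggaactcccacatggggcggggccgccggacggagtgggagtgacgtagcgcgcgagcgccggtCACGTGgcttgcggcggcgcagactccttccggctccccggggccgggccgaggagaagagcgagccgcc
Nop2: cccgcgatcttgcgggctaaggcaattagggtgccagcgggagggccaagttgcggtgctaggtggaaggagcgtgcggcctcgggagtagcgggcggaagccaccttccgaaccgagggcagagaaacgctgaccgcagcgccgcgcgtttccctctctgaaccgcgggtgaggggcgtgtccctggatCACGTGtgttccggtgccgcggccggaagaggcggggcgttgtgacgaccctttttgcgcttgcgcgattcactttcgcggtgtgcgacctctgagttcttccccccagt
Rcl1: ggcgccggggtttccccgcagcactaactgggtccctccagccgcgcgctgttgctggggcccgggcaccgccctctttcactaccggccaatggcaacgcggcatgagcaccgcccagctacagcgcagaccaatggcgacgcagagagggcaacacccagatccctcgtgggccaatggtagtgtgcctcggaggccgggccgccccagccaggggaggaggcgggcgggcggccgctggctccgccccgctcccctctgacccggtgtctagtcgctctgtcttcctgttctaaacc

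A match is a run of letters and not evidence of binding. The 6 genes with the motif had a median slope on Myc of 0.08 and the 28 without it a median of 0.09, in log2 units of the gene per log2 unit of Myc. Among 97 other ribosome assembly factors the motif stood in the windows of 19 of 79 genes (24.1%), among ribosomal protein genes in 4 of 35 (11.4%) and among mitosis genes in 1 of 24 (4.17%).

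The nucleolar genes were expressed in every tumour. Of the 39, 37 lay above the median gene and 18 above the upper quartile of gene levels, and no tumour had any of them under the lower quartile of its array. Nucleolin (Ncl), an abundant nucleolar RNA-binding protein, had 12.20, 12.49 and 12.78 as lowest, median and highest log2 signal in EMT tumours, against 12.15, 12.48 and 12.73 in Squamous tumours. Its values overlapped almost fully, with EMT 4 and Squamous 8 lowest in their groups. Nucleophosmin (Npm1), a nucleolar chaperone, had 12.20, 12.56 and 12.96 in EMT and 12.42, 12.56 and 12.87 in Squamous tumours. EMT 1 was the highest tumour for both genes.

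The genes moved together from tumour to tumour more than they separated the histologies. The mean over the 39 genes was 9.65, 9.23, 9.48, 9.10, 9.22 and 9.10 in EMT 1 to EMT 6. It was 9.55, 9.51, 9.49, 9.27, 9.18, 9.45, 9.36, 9.13 and 9.47 in Squamous 1 to Squamous 9, with 9.52 in the Papillary and 9.32 in the Microacinar tumour. EMT tumours thus held both the highest value, in EMT 1, and the lowest, in EMT 4 and EMT 6, with a mean of 9.30 ± 0.22 against 9.38 ± 0.15 in Squamous tumours (SD, n = 6 and 9). EMT 1 lay above the gene's own median over the 17 tumours for 39 of 39 genes and held the highest value of all tumours for 17 of them. EMT 4 lay above it for 5 genes and held the lowest value for 11, and EMT 6 held the lowest for 9. Among Squamous tumours, Squamous 1 lay above the gene medians for 32 genes, Squamous 5 for 1 and Squamous 8 for 2. The spread was wider among EMT than among Squamous tumours for 31 of the 39 genes, a difference that was not tested. The share over all genes was not counted, so this is not shown to be particular to these genes. EMT 5 and EMT 6 are also TM arrays, with more widely spread values.

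**Figure D1:**
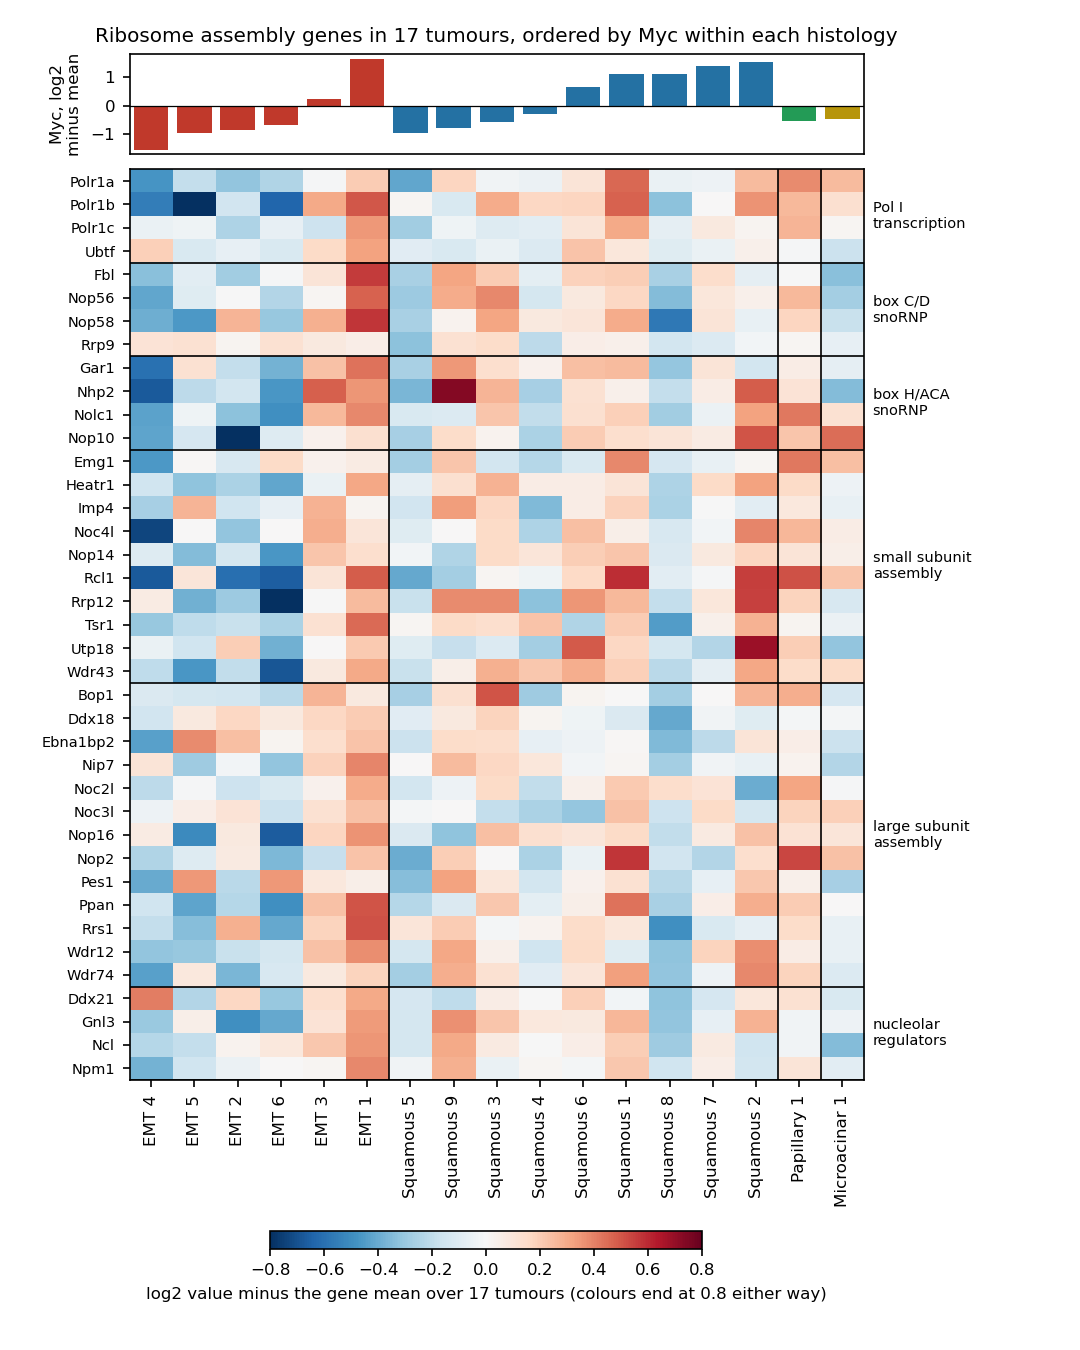
Log2 signal of each of the 39 genes (rows, by role) minus the gene's mean over the 17 tumours, for each tumour (columns, ordered by Myc within each histology label), with bars of log2 Myc minus its mean above. EMT 1, above the gene's own median for 39 of 39 genes, is the reddest EMT column, and EMT 4, above it for 5, Squamous 5, for 1, and Squamous 8, for 2, are mostly blue.

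Over the 741 pairs of these genes the correlation across the 17 tumours was above 0 for 704 pairs with a median of 0.47, as a description of these arrays. The points share the array, its scaling and the tissue makeup of the tumour. The median over pairs of all genes was 0.0065, and over pairs of genes above the median level it was 0.056. The closest pairs were Nop14 with Nop16 (0.91), factors of the small and large subunit, and Polr1b with Ppan (0.90). Rrp9 went least with the mean of the others (0.26). The lowest pair was Nop16 with Pes1 (-0.37), which forms a large-subunit complex with Bop1 and Wdr12.

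Whether ribosome assembly genes differed with histology was read from the 6 EMT against the 9 Squamous tumours. No nucleolar gene passed the threshold of an adjusted p of 0.05 in limma, nor did any of the 12393 genes (0.00% called). At an unadjusted p under 0.05, 1 gene was higher in EMT tumours (8.08% of all genes were) and 0 were lower (6.27% of all genes). The estimates were above 0 for 12 of 39 genes (51.8% of all genes) and below 0 for 27 (48.2%), with a median of -0.07, against 0.01 over all genes. No gene separated the groups fully, while 0.153% of all genes were above and 0.0968% below in every EMT tumour. The median depended on single tumours. Without EMT 1 it was -0.15, with 6 genes above 0 (52.8% of all genes) and 6 lower in EMT tumours at an unadjusted p under 0.05 (8.34% of all genes). It was 0.01 without EMT 4, with 22 above 0 (50.1%). Without Squamous 9, the only Squamous tumour with a TM title, it was 0.01, with 21 above 0 (49.9%). The title format term then takes up the mean of EMT 5 and EMT 6. That setting therefore leaves out more than a single tumour, and its estimates equal those of numbered arrays alone. With estimated array weights the median was 0.045, with 29 above 0 (53.4% of all genes).

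The polymerase I group had 3 estimates below 0 and 1 above, with a median of -0.12, and of -0.07 on numbered arrays alone. Polr1b, the second-largest subunit of the enzyme, had 7.43, 7.95 and 8.80 as lowest, median and highest value in EMT tumours, against 7.98, 8.47 and 8.77 in Squamous tumours. EMT 1 was above every Squamous tumour and 3 EMT tumours were below every one, so the EMT values ran past the Squamous range at both ends. The difference was -0.22 (SE 0.17, adjusted p = 0.564 in limma). It ran from -0.36 without EMT 1 to -0.09 without EMT 4, and was -0.12 on numbered arrays. Polr1a, the largest subunit, differed by -0.22 (SE 0.13, adjusted p = 0.471 in limma), with 7.80, 8.05 and 8.47 in EMT and 7.85, 8.24 and 8.73 in Squamous tumours. Ubtf, which opens ribosomal RNA gene chromatin for the enzyme, was the 1 estimate above 0, at 0.12 (SE 0.07).

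All 4 measured box H/ACA genes had estimates below 0, with a median of -0.18, and of -0.05 on numbered arrays alone. Nop10, a small structural protein of these particles and of telomerase, had 10.47, 11.18 and 11.42 in EMT tumours, against 11.04, 11.40 and 11.80 in Squamous tumours. EMT 2 was the lowest, 2 EMT tumours lay below every Squamous one, and none lay above. The difference of -0.32 was the largest in size among the 39 genes (SE 0.15, 95% interval -0.66 to 0.01, adjusted p = 0.358 in limma), and it ran from -0.42 to -0.18 when single tumours were left out. Nhp2, which binds the guide RNA in these particles, had 10.64, 11.13 and 11.79 in EMT tumours and 10.95, 11.37 and 12.05 in Squamous tumours. Its groups overlapped, and its difference of -0.23 (SE 0.21) was -0.02 on numbered arrays alone. The box C/D genes were split, with 2 estimates above and 2 below 0, but 4 of 4 were above 0 on numbered arrays alone, with a median of 0.08. Fibrillarin (Fbl), the methyltransferase of those particles, had 10.87, 11.15 and 11.76 in EMT tumours and 10.94, 11.34 and 11.52 in Squamous tumours, with a difference of -0.07 (SE 0.14, adjusted p = 0.863 in limma) and of 0.01 on numbered arrays.

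Small-subunit factors had 9 of 10 estimates below 0, with a median of -0.13, and 8 of 10 on numbered arrays alone, with a median of -0.09. Rrp12, which takes part in subunit export in yeast, had 6.65, 7.50 and 7.90 in EMT tumours, against 7.32, 7.91 and 8.20 in Squamous tumours. EMT 6, a TM array, was lowest. The difference was -0.30 (SE 0.19), and -0.11 on numbered arrays alone. Rcl1, which acts in precursor RNA cleavage in yeast, had 8.04, 8.46 and 9.19 in EMT and 8.30, 8.71 and 9.30 in Squamous tumours, with a difference of -0.22 (SE 0.22) that ran from -0.38 to -0.08 when single tumours were left out. Wdr43 and Heatr1, both needed for efficient transcription and processing of ribosomal RNA, differed by -0.21 (SE 0.13) and -0.20 (SE 0.11), and by -0.11 and -0.12 on numbered arrays. Each of these 4 genes had overlapping groups.

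Large-subunit factors lay around 0, with 6 of 13 estimates above 0, a range of -0.19 to 0.14 and a median of -0.01. On numbered arrays alone, 11 of 13 were above 0, with a median of 0.03. The nucleolar regulators held the only gene with an unadjusted p under 0.05. Ddx21, an RNA helicase of nucleolus and nucleoplasm, had 8.76, 9.21 and 9.47 in EMT tumours, against 8.74, 9.04 and 9.25 in Squamous tumours. EMT 4 and 1 other EMT tumour lay above every Squamous tumour and the rest overlapped. Its difference was 0.22 (SE 0.09, 95% interval 0.03 to 0.41, unadjusted p = 0.029, adjusted p = 0.304 in limma). It was 0.29 on numbered arrays alone and 0.13 without the title format term (adjusted p = 0.576 in limma). Without that term 0 of the 39 genes had an unadjusted p under 0.05, while 2014 of all 12393 genes had, in either direction. Gnl3 (nucleostemin), a GTPase first known from stem and cancer cells, lay at -0.22 (SE 0.15), or -0.13 on numbered arrays, with 9.65, 10.01 and 10.48 in EMT and 9.82, 10.22 and 10.51 in Squamous tumours.

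**Figure D2:**
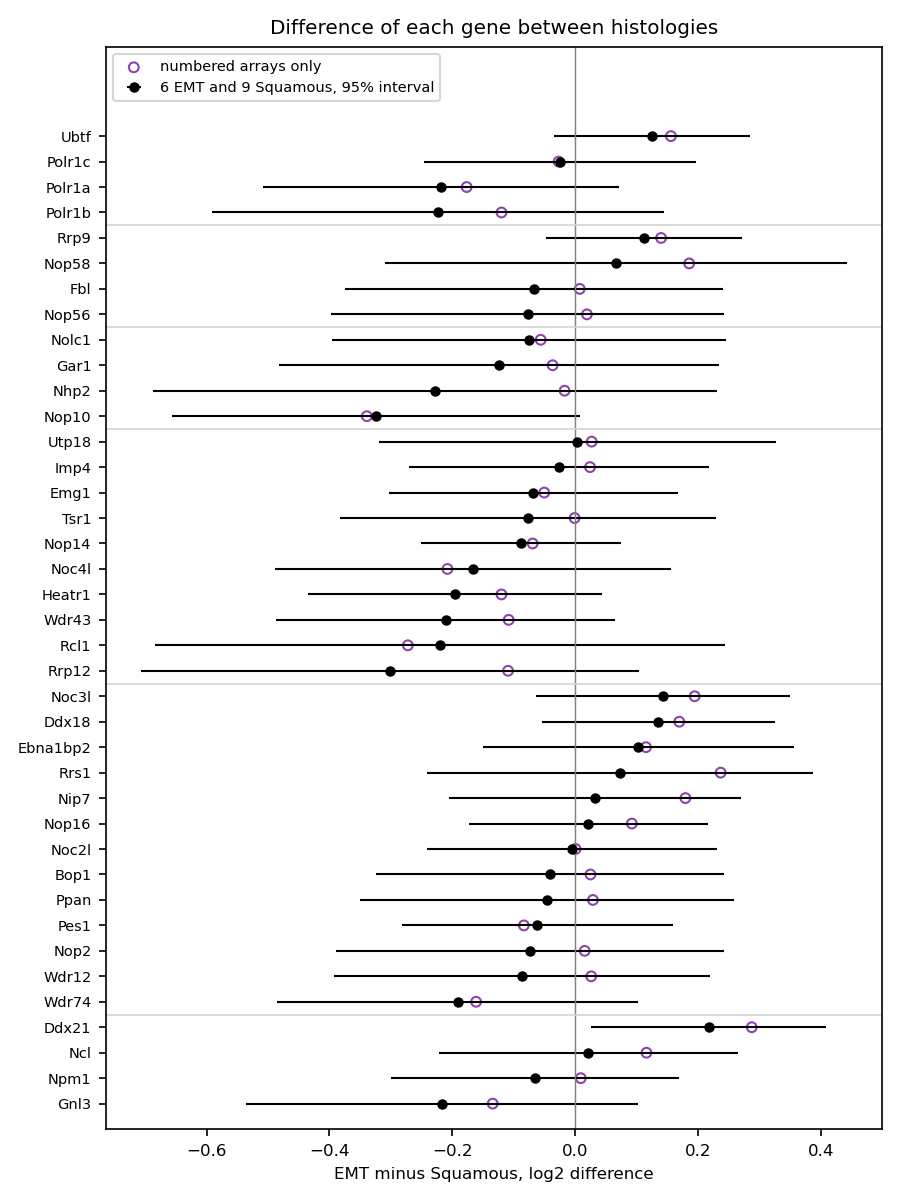
Difference EMT minus Squamous in log2 signal for each of the 39 genes, by role, with 95% intervals from limma (black) and the estimates on numbered arrays alone (open points). The estimates run from -0.32 for Nop10 to 0.22 for Ddx21, and the interval of Ddx21 alone lies off 0 before adjustment.

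The 97 other assembly factors measured (of 124 listed) had a median difference of 0.03, with 12 higher and 1 lower at an unadjusted p under 0.05, and the 40 measured ribosomal protein genes (of 70) a median of -0.03. Neither list had a gene past the adjusted threshold. The 29 measured mitosis genes (of 30) had 29 of 29 estimates above 0 and a median of 0.50, and 17 had an unadjusted p under 0.05. Cdk1, the mitotic kinase, was above the highest Squamous tumour in 6 of 6 EMT tumours, at 9.85, 10.11 and 10.88 in EMT tumours against 8.61, 9.28 and 9.65 in Squamous tumours, with an adjusted p of 0.123 in limma.

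The second comparison set each gene against the Myc signal of the same tumour. Myc was 12.40, 9.88, 10.95, 9.18, 9.78 and 10.04 in EMT 1 to EMT 6, and 11.84, 12.29, 10.16, 10.42, 9.79, 11.40, 12.15, 11.87 and 9.94 in Squamous 1 to Squamous 9. It was 10.20 in the Papillary and 10.28 in the Microacinar tumour. EMT 1 had the highest Myc of all 17 and EMT 4 the lowest, and the groups overlapped widely (10.37 ± 1.15 in EMT, 11.09 ± 1.01 in Squamous, SD, n = 6 and 9). Whether this probe set reads the transgene's RNA as well as that of the mouse gene is not given in the sources used here.

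Slopes on Myc were above 0 for 37 of the 39 genes, against 54.9% of all genes and 57.2% of genes above the median level. The median slope was 0.085, against 0.0093 over all genes and 0.019 over genes above the median level, so a tumour with 1 log2 unit more Myc had about 0.085 log2 units more of the median gene. No nucleolar gene passed an adjusted p of 0.05 in limma and neither did any other gene (0.00% called). The smallest adjusted p among the 39 was 0.336. At an unadjusted p under 0.05, 11 of 39 slopes (28.2%) were above 0, against 7.84% of all genes, and 0 were below 0, against 5.54%. The 39 genes vary together, so these counts are not 39 independent results.

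**Figure D3:**
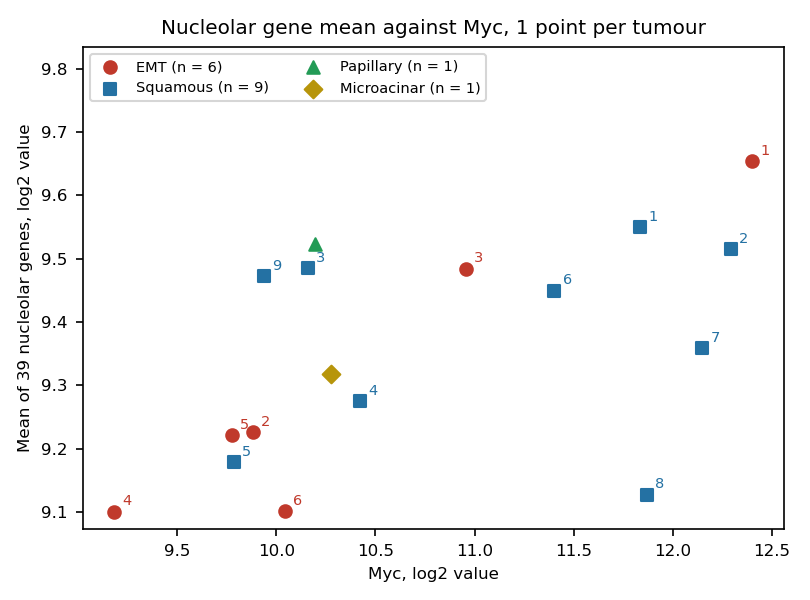
Mean log2 signal of the 39 genes against log2 Myc signal, 1 point per tumour by histology label. EMT 1 lies at the top right (12.40, 9.65) and EMT 4 at the bottom left (9.18, 9.10), while Squamous 8 has high Myc (11.87) and a low mean (9.13).

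By role, the median slope was 0.16 for box H/ACA genes, 0.12 for polymerase I genes, 0.09 for both box C/D and small-subunit genes, 0.08 for the regulators and 0.04 for large-subunit genes. Rcl1 had the steepest slope, at 0.25 (SE 0.08, unadjusted p = 0.0092, adjusted p = 0.336 in limma). EMT 1, with the most Myc, had the highest EMT value (9.19) and EMT 4, with the least, had the lowest (8.04). In Squamous tumours the highest value was 9.30, in Squamous 1, and the lowest 8.30, in Squamous 5, which had the least Myc of its label. The Papillary tumour departed from this, with 9.22 at a Myc of 10.20.

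Among the box H/ACA genes, Nhp2 had a slope of 0.20 (SE 0.09), Nop10 of 0.19 (SE 0.07), Gar1, which binds the catalytic core, of 0.13 (SE 0.07), and Nolc1, a phosphoprotein that accompanies both kinds of particle, of 0.11 (SE 0.07). The first 2 of these had an unadjusted p under 0.05. Of the box C/D genes only Fbl did, at 0.15 (SE 0.06), and Rrp9, which belongs to the particle that guides early cleavage, lay at 0.0020 (SE 0.04). Polr1a, at 0.15 (SE 0.06), and Polr1c, a subunit shared with RNA polymerase III, at 0.10 (SE 0.04), had an unadjusted p under 0.05, and Polr1b had a slope of 0.14 (SE 0.07). All 3 were lower in the EMT tumour with the least Myc than in EMT 1.

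**Figure D4:**
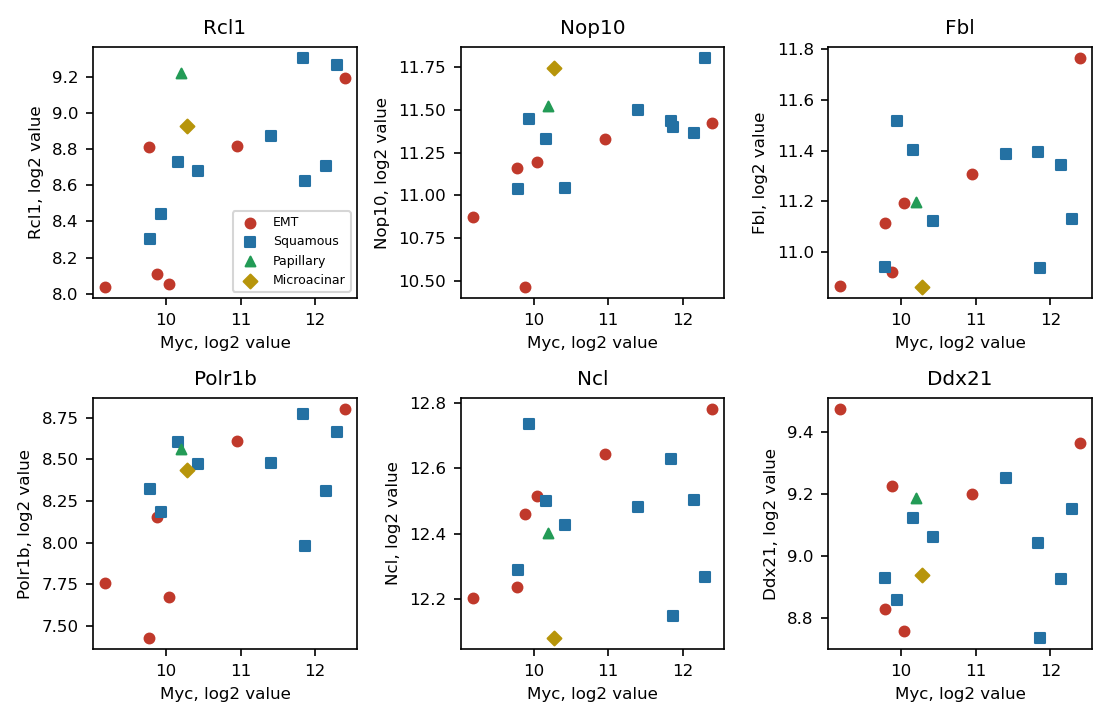
Log2 signal of Rcl1, Nop10, Fbl, Polr1b, Ncl and Ddx21 against log2 Myc signal, 1 point per tumour by histology label. Rcl1, with a slope of 0.25, climbs from EMT 4 to EMT 1, and Ddx21, with -0.04, does not.

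Small-subunit slopes ran from 0.045 to 0.25, and besides Rcl1 only Noc4l, part of a pair with Nop14, had an unadjusted p under 0.05, at 0.15 (SE 0.06). Large-subunit genes were uneven. Wdr74 (0.14, SE 0.06), Wdr12 (0.13, SE 0.06), Ppan (0.13, SE 0.06) and Pes1 (0.11, SE 0.04) had an unadjusted p under 0.05. Rrs1 and Nip7 lay at 0.0045 and 0.0016, with SEs of 0.07 and 0.05. Bop1, the partner of Pes1 and Wdr12, had 0.04 (SE 0.06), a difference from them that was not tested. The 2 slopes below 0 (45.1% of all genes) belonged to the helicases Ddx21 (-0.04, SE 0.05) and Ddx18 (-0.02, SE 0.04). Ncl and Npm1 had slopes of 0.07 (SE 0.05) and 0.08 (SE 0.05).

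**Figure D5:**
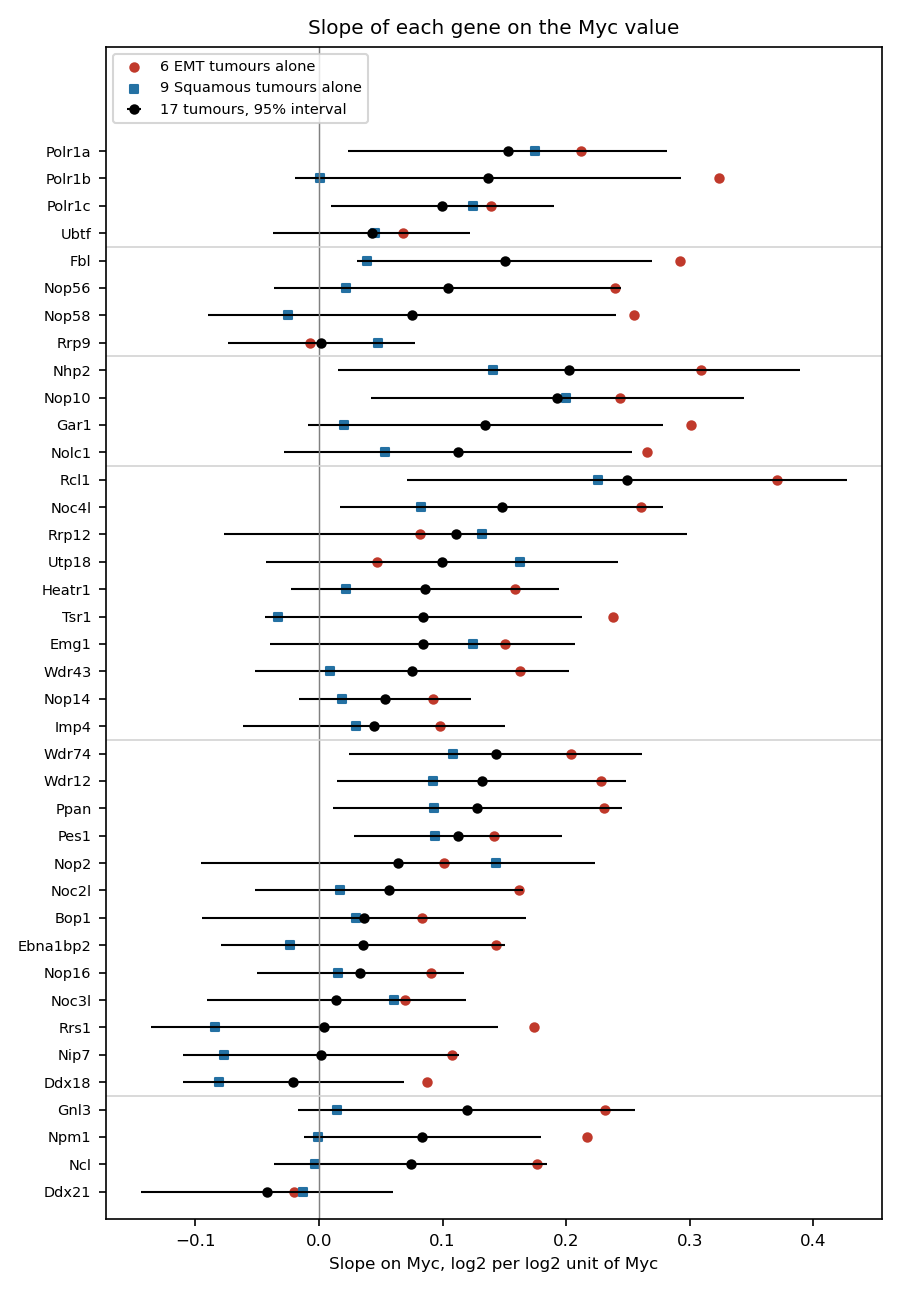
Slope on log2 Myc signal for each of the 39 genes, by role, with 95% intervals from limma over 17 tumours (black) and the slopes within EMT and within Squamous tumours (coloured). Over 17 tumours the slopes reach from -0.04 for Ddx21 to 0.25 for Rcl1, and 37 of 39 are above 0.

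The slopes rested in part on the tumours at the ends of the Myc range. Without EMT 1 and Squamous 2, those farthest from the median Myc, 32 of 39 slopes were above 0 (53.5% of all genes) with a median of 0.06, and 1 had an unadjusted p under 0.05 (4.66% of all genes) against 1 below 0. Without EMT 1 and EMT 4, the median was 0.03, 32 of 39 were above 0 (57.4%), and 1 of these had an unadjusted p under 0.05, as had 743 slopes above 0 among all 12392 genes. Leaving out 1 tumour at a time, the count of 11 became 6 without EMT 1 (8.88% of all genes), 4 without EMT 4 (4.84%), 7 without Squamous 5 (6.86%) and 20 without Squamous 8 (9.13%). On numbered arrays alone the median was 0.085, and 13 slopes had an unadjusted p under 0.05 (7.78%). With histology as a term it was 0.09, 36 of 39 slopes were above 0 (55.5%), and 12 of these had an unadjusted p under 0.05, as had 1366 slopes above 0 among all genes.

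Other measures ran along the same axis. Fibroblast markers had a median slope on Myc of -0.60, and 10 of 11 had a slope below 0 with an unadjusted p under 0.05, so fibroblast signal ran lower where Myc ran higher. Skeletal muscle markers had a median slope of -1.04, with 12 of 12 below 0 and 8 with an unadjusted p under 0.05. Endothelial markers (8 of 8 measured), which averaged 6.89 to 8.11 over the EMT tumours and 6.38 to 8.42 over the Squamous tumours, had a median slope of -0.37, and 7 of 8 were below 0 with an unadjusted p under 0.05. Epithelial markers had a median slope of 0.47, with 12 of 12 above 0 and 0 with an unadjusted p under 0.05. The part of these markers in the slopes of the nucleolar genes was not tested. Over all genes, 7.84% had a slope above 0 with an unadjusted p under 0.05, and 5.54% a slope below 0. Of the 97 other assembly factors, 74 had slopes above 0 with a median of 0.04, and 18 (18.6%) had an unadjusted p under 0.05. Of the 40 ribosomal protein genes, 36 had slopes above 0 with a median of 0.04. Of these 40, 13 (32.5%) had an unadjusted p under 0.05, against 28.2% of the nucleolar genes. Of the 29 mitosis genes, 6 had slopes above 0, with a median of -0.05.

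Slopes were also fitted within each histology. Among the 6 EMT tumours the median slope was 0.16, 37 of 39 were above 0 (48.1% of all genes) and 18 had an unadjusted p under 0.05 (6.76% of all genes). Among the 9 Squamous tumours the median was 0.03, 30 of 39 were above 0 (58.5%) and 2 had an unadjusted p under 0.05 (8.87%), namely Nop10 at 0.20 and Rcl1 at 0.23. No nucleolar gene passed the adjusted threshold within either histology in limma. Among EMT tumours the count of 18 became 5 without EMT 1 (6.17% of all genes; median slope 0.22) and 7 without EMT 4 (5.70%; median 0.17).

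The difference between the slopes, EMT minus Squamous, was tested in one limma model over 15 tumours. It passed an adjusted p of 0.05 for 29 of 12392 genes (0.234%) and for 0 of the 39. The smallest adjusted p among the 39 was 0.178, for Npm1, with a difference of 0.25 (SE 0.07). The slopes within each histology come from separate fits, so their gap need not equal that difference, and for Npm1 they were 0.22 in EMT and -0.00076 in Squamous tumours. The difference was above 0 for 37 of 39 genes (40.8% of all genes) and below 0 for 2 (59.2%). Of genes above the median level, where 37 of the 39 lie, 49.3% were above 0, with a median of -0.0031. The 39 genes had a median of 0.14, against -0.03 over all genes, and 11 had an unadjusted p under 0.05 (6.77% of all genes) with 0 below 0 (8.35%). Polr1b had slopes of 0.32 in EMT and 0.00059 in Squamous tumours, Fbl of 0.29 and 0.04, and Rrs1, which brings an early particle into the large subunit, of 0.17 and -0.08. Nop10 and Rcl1 had 0.24 and 0.37 in EMT against 0.20 and 0.23 in Squamous tumours. The count of 11 became 2 without EMT 1 (6.50% of all genes) and 6 without Squamous 9 (4.70%), the only Squamous tumour with a TM title. Other lists also had differences above 0. These were 29 of 29 mitosis genes (median 0.29), 66 of 97 other assembly factors (0.085) and 31 of 40 ribosomal protein genes (0.065). The epithelial markers had the largest, above 0 for 12 of 12 with a median of 1.34, and 8 had an unadjusted p under 0.05. Skeletal muscle markers were above 0 for 0 of 12, with a median of -1.41. The part of tissue makeup in the differences of the nucleolar genes was not tested.

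The single Papillary and Microacinar tumours had no replicate, so their values stand beside the others without a test. The Papillary tumour lay above the gene's median over 17 tumours for 32 of 39 genes at a Myc of 10.20, and the Microacinar tumour for 10 of 39 at 10.28. Emg1, a methyltransferase of the small subunit, was 11.19 in the Papillary and 11.01 in the Microacinar tumour, against 10.50 to 11.15 in Squamous tumours. Ncl was 12.40 and 12.08 in them, against 12.15 to 12.73 in Squamous tumours, so the Microacinar value was below that range. Nop2, a large-subunit RNA methyltransferase, was 9.56 and 9.26, within the Squamous range of 8.62 to 9.60.

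Probe sets of one gene were compared with each other. For 21 of the 39 genes there were 27 further probe sets. Of these, 26 had a plain slope on Myc of the same sign as the one used. The sizes could differ in either direction. The 3 further Ncl probe sets had slopes of 0.15, 0.16 and 0.23, against 0.052 for the one used. The further Nip7 probe set had 0.20, against 0.021. Smaller than the one used were the further Npm1 probe set, at 0.020 against 0.065, and a Polr1a probe set, at 0.053 against 0.15. Plain values leave out the title format term, so their signs can differ from those of the models above. Ddx21 had plain slopes of 0.0066 for the probe set used and 0.036 for the other, against -0.04 in the model. Ebna1bp2 had -0.0011 and -0.069, against 0.036 in the model. In the histology comparison 19 of the 27 had a plain EMT minus Squamous difference of the same sign as the plain difference of the one used. The 3 further Ncl probe sets gave -0.14, -0.19 and -0.16, against 0.03 for the one used, and the other Npm1 probe set gave 0.20, against -0.05. Single further probe sets of Polr1c, Imp4, Nop56 and Nop16 also differed in sign. Pes1 had 0.03 for the probe set used and 0.70 for a dimmer one, while the model gave -0.06 for the probe set used. For Imp4, Nop16 and Nip7 the model also gave the other sign, at -0.03, 0.02 and 0.03. Their plain differences were 0.03, -0.11 and -0.0059 for the probe sets used, and -0.05, 0.0044 and -0.36 for the further ones. The count of 19 therefore refers to plain differences only. The probe sets used for Polr1c, Fbl, Nop56, Nhp2, Gar1, Wdr43 and Tsr1 are of the kind that can read related transcripts.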

How the data were processed

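Each of 17 mammary tumours was hybridised to 1 Affymetrix mouse array from biotin-labelled cRNA. What the authors deposited was a log2 signal for each of 22690 probe sets. The scale was read from the values, and the authors' normalization is not given in the sources used here. Array medians were 7.23 to 7.40, and no further normalization was applied.

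The supplied probe table gave 20380 probe sets 1 gene, 691 several and 1555 none, and 64 were controls. The gene table (GRCm38.p6) matched 20351. The probe set with the highest mean stood for each of 12393 genes, of which 4956 had several. Members and lists were chosen with earlier results of these data known, so a pattern in them is no independent evidence. No p-value was adjusted over a list alone, and none was given to a list's score.

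The 6 EMT tumours were set against the 9 Squamous ones in limma 3.58.1 (R 4.3.3), with title format as a term, moderated tests, Benjamini-Hochberg adjustment over all genes and a threshold of 0.05. The slope on log2 Myc signal used 17 tumours and the slope difference used 15. RNA integrity was tested by exact permutation over 5005 splits. On simulated data over all genes, 36 of 50 genes with a simulated log2 difference of 1 were recovered for EMT minus Squamous. There were 10 false calls over all changed sizes. At size 1, 46 of 50 were recovered for the slope on Myc and 38 of 50 for the slope difference, with 8 and 9 false calls. These shares need not hold for the tumours, where Cdk1 differed by 0.95 with an adjusted p of 0.123 in limma. The nucleolar genes differed by -0.32 to 0.22, smaller than the smallest simulated size of 0.5, so the simulation does not show how many such differences would be found.

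Genes were named by a rule: Ncl, Npm1, Fbl, Dkc1 and Polr1b, the 10 largest differences, the 10 steepest slopes, genes with a tumour far from the others, and Myc, Cdk1 and Cdh1. Other names were chosen after their values were seen. Alternatives covered the title format term, numbered arrays, quantile and median scaling, the mean of probe sets, a trended robust fit, genes above the median level only, array weights, averaging Squamous 7 with Squamous 8, a histology term, single histologies and leaving out each tumour. Python 3.11.15, pandas 2.3.3, numpy 2.4.6, scipy 1.17.1 and matplotlib 3.10.9 were used.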

Additional observations from a re-analysis of the deposited data

Results flagged for a closer look

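Among 78 gene-by-histology groups, 4 held a tumour far from the rest of its label by Dixon's gap test. That is about the share of 1 in 20 that chance gives, and the groups share tumours, so they are not independent. Polr1c was 9.65 in EMT 1, against 9.05 to 9.27 in the other EMT tumours. Ddx18 was 9.01 in EMT 4, against 9.24 to 9.37 in the other EMT tumours, and 8.75 in Squamous 8, against 9.04 to 9.34 in the other Squamous tumours. Rrs1 was 8.82 in Squamous 8, against 9.19 to 9.51 in the other Squamous tumours. EMT 1 had the highest Myc and EMT 4 the lowest, while Squamous 8 had high Myc (11.87). A relation of these values to Myc was not tested.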

How the results depend on the processing

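The count of 0 nucleolar genes past the adjusted threshold held in each setting run for EMT minus Squamous and for the slope on Myc. Over all genes, leaving out single tumours gave 0 to 14 genes for EMT minus Squamous, with 14 without EMT 1, and the median over the nucleolar genes ran from -0.15 to 0.01. With array weights that median was 0.045, with 29 of 39 estimates above 0, and Polr1b and Rcl1 lay at -0.0054 and -0.0049. Nhp2 reversed to 0.0231 for EMT minus Squamous with array weights. The median slope on Myc ran from 0.064 to 0.114 when single tumours were left out. It was 0.163 in EMT tumours alone, 0.223 without EMT 1 as well and 0.172 without EMT 4 instead, the last 2 chosen after seeing the data, as was leaving out EMT 1 and EMT 4 together. The 29 genes past the threshold for the slope difference became 10 with no title format term, 0 on numbered arrays, 19 with the mean of probe sets, 14 among genes above the median level, 19 with a trended robust fit, 6 with array weights, 15 with Squamous 7 and Squamous 8 averaged and 0 to 43 when single tumours were left out. The RNA integrity difference was -0.0972 on numbered arrays (exact permutation p = 0.162). The cause of these changes was not tested, apart from fewer tumours or genes where a setting leaves them out. Rrp12 lies below the median level and has no value in that setting. No paired analysis was possible because replicate numbers are in accession order and pair no tumours. The slopes over 17 tumours had a median SE of 0.056, against a median slope of 0.085.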
